A study of Mus musculus with 2 samples.

Results

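The cytoplasmic ribosomal protein genes of the mouse were examined in neural tube at embryonic day 13.5. They were chosen by name: protein-coding genes whose symbol is Rpl or Rps with a number and optional suffix letters, or Rpsa, Rplp0, Rplp1 or Rplp2, without the Rps6k kinases and the named pseudogenes. The rule found 81 of the 43346 mouse genes in the tables, 50 of the large and 31 of the small ribosomal subunit. The rule uses no measured value, though it was set with earlier results of these data known. Total RNA, 10 ng a library, gave 2 libraries of a single group, called biological replicates 1 and 2, from pooled male and female embryos of the strain B6NCrl, with spike-in RNA added. The labels name neither a treatment nor a second group, so the ratio of replicate 1 over replicate 2 compares these 2 libraries and not conditions, and no test between groups was possible.

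Each ribosome carries a single copy of nearly every ribosomal protein, and the mRNAs that encode them are among the most abundant of dividing and growing cells. Their 5′ ends usually begin with a cytosine and an unbroken run of pyrimidines, the terminal oligopyrimidine (TOP) tract, through which growth signals via the kinase mTOR control their translation. Short, abundant and present in the germ line, these mRNAs have also been copied back into the genome many times, which leaves intronless copies whose sequence can be close to that of the spliced mRNA. Mutations of single members give specific developmental defects in mice, among them changed vertebral identity, pale belly spots and dark skin.

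Replicate 1 held 34125110 estimated reads and replicate 2 held 22311849, of which 32151162 and 21084234 fell on mouse genes. Markers of the labelled tissue were present: Tubb3, a neuronal tubulin, stood at 1245 and 1175 TPM (a length-corrected share of all transcripts) and Fabp7, a radial glia gene, at 2061 and 1934 TPM. These are the highest of their lists. The 8 listed neuronal genes had a median of 581 TPM, all above 1 TPM in both libraries. The 8 listed progenitor genes had a median of 24.5 TPM, with 7 above 1 TPM in both libraries and Sox1 at 0.72 and 0.86 TPM. All 8 listed spinal position genes were above 1 TPM in both libraries, but their levels differed between them. Hoxd10 (99.3 and 66.4 TPM) and Hoxc10 (69.5 and 44.6) were past 1.5-fold higher in replicate 1, the only 2 past that fold. By TMM-scaled counts 3 of the 8 were higher in replicate 1, and Hoxb8 (61.6 and 87.0 TPM) was among the others. The erythroid list, led by Hba-a2, summed to 11207 and 11250 TPM, so RNA of blood cells was present in like amounts. In such bulk RNA, fewer cells of a type and less RNA per cell cannot be told apart.

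The members together held 36795 TPM in replicate 1 and 35116 TPM in replicate 2, which is 4.23% and 4.02% of mouse gene TPM (mean 4.13% ± 0.15, SD, n = 2). By estimated reads, which weight genes by length, the share was 1.52% (95% exact binomial interval 1.51 to 1.52) and 1.41% (1.40 to 1.41), intervals that cover counting error only. Of the 81 members, 78 were above 1 TPM in both libraries and 75 were at 100 TPM or more in both. The median of the 78 was 438 TPM, against 18.6 TPM over the 13263 protein-coding genes above 1 TPM. Among protein-coding genes, 9 members stood in the 100 of highest mean TPM and 31 in the highest 200.

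Rpl41, which encodes the shortest ribosomal protein, was the highest member at 2054 TPM in replicate 1 and 1922 TPM in replicate 2 (1988 ± 93.5, SD, n = 2; ENSMUSG00000093674.3, GRCm38 chromosome 10, 128548114 to 128549305, minus strand). It ranked 24th among protein-coding genes and lay about a factor of 2 above every other member. Rpl32 followed at 1044 and 949 TPM, and Rps19, whose human counterpart is mutated in Diamond-Blackfan anaemia, at 983 and 937 TPM. Rps14, which lies in the human interval lost in 5q- syndrome, had 898 and 856 TPM, and Rps29 had 864 and 772 TPM. The 10 highest also held Rpl37a (832 and 750 TPM), Rpl7 (814 and 756), Rpl36 (803 and 719) and Rplp1, a stalk protein (744 and 749). Rps9 came just below Rplp1, at 741 and 749 TPM, so no gap set the 10 highest apart from the rest.

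**Figure D1:**
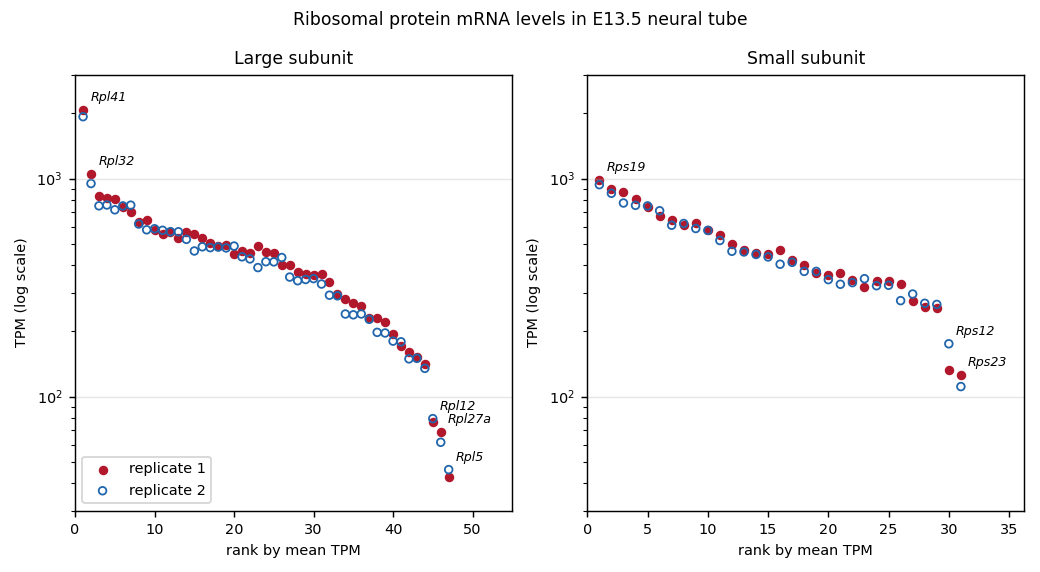
Deposited TPM (vertical log axis) of the 78 members above 1 TPM against their rank by mean TPM, large subunit left and small subunit right; filled points are replicate 1 and open points replicate 2, and some members of high or low level are named. Levels run from 42.6 TPM (Rpl5) to 2054 TPM (Rpl41), while the points of one gene lie close together.

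For the genes alone, the subunits had like medians. Large subunit members above 1 TPM had a median of 457 TPM in replicate 1 and 416 TPM in replicate 2 over 47 genes. Small subunit members had 452 and 413 TPM over 31 genes. With the sequence copies described below added, the medians were 537 and 529 TPM for the large subunit. Those of the small subunit were higher in both libraries, at 609 and 609 TPM. The stalk proteins Rplp0, Rplp1 and Rplp2, of which the ribosome carries P1 and P2 in more than a single copy, stood at 645 and 582, 744 and 749, and 583 and 588 TPM. All 3 were above the median of the 78. The SD of log2 mean TPM over the 75 members at 100 TPM or more was 0.75, and 62 of the 78 were within a factor of 2 of the median.

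Some members, picked here as examples for their position in the ribosome, had these levels. Around the peptide exit tunnel, Rpl4 had 536 and 570 TPM, Rpl17 260 and 239 TPM, and Rpl39 269 and 237 TPM. At the mRNA entry site of the small subunit, Rps2 had 581 and 579 TPM, Rps3 had 343 and 333 TPM and Rps9 had 741 and 749 TPM, so Rps9 was above the others in both libraries. Near the peptidyl transferase centre, Rpl3 had 492 and 485 TPM, Rpl8 had 401 and 434 TPM and Rpl10 had 464 and 437 TPM. With its copies added Rpl10 stood at 757 and 714 TPM, above Rpl3 at 517 and 528 TPM and Rpl8 at 401 and 434 TPM.

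Rps27a, which is made as a fusion with ubiquitin, had 549 and 520 TPM, and Rpsa, also known as a laminin receptor, had 360 and 344 TPM. Other members whose human counterparts are mutated in Diamond-Blackfan anaemia, again examples, were lower than Rps19. Rps26 had 628 and 590 TPM, Rps10 424 and 413 TPM, Rpl35a 451 and 490 TPM, and Rpl11 229 and 197 TPM. Rpl11 was the lowest of these in both libraries.

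Of the expressed members 3 stood below 100 TPM, all of the large subunit. Rpl5, which binds 5S rRNA together with Rpl11, had 42.6 and 46.2 TPM (44.4 ± 2.57, SD, n = 2; chromosome 5, 107900502 to 107909005). Rpl27a, the gene of the sooty foot ataxia mutant, had 69.0 and 61.7 TPM (65.4 ± 5.20). Rpl12 had 76.1 and 79.2 TPM (77.7 ± 2.19). Next above them came Rps23 (125 and 111 TPM), Rpl27 (141 and 135), Rpl37 (152 and 150) and Rps12 (133 and 175). The highest member exceeded the lowest of the 78 by a factor of 44.8 in mean TPM. For each of these 7 low members, reads were also assigned to near-identical copies elsewhere in the genome, as follows.

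A search of the annotated transcripts with the members' mRNAs found 793 genes outside the rule that match a member at 90% identity or more over at least 50% of their own length. They belong to 77 of the 81 members, with a median of 7 and up to 61 (Rpl21) for each member. Of these copies 313 had 0 reads in both libraries, and 26 had 100 TPM or more in both. The 26 held 86.7% and 83.4% of all copy reads, 20 of them matched the member at every aligned base, and the lowest identity among them was 99.39%. Of the 26, 24 have a single exon and 22 are annotated as pseudogenes. By contrast the 669 copies under 99% identity held 3.67% and 4.66% of the copy reads.

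The pattern is shown for Rps23, a protein of the decoding centre, by the first 90 coding bases of the gene and the aligned bases of a pair of its copies (GENCODE M21, GRCm38), with bases that differ from Rps23 in capitals. The gene is on chromosome 13, Rps23-ps1 on chromosome 3 at 37714740 to 37715164, and Gm9701 on chromosome 3 at 62923807 to 62924233.
Rps23: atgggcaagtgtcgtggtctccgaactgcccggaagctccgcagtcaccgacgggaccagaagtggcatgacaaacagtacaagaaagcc
Rps23-ps1: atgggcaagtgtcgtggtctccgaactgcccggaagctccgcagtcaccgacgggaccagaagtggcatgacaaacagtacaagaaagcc
Gm9701: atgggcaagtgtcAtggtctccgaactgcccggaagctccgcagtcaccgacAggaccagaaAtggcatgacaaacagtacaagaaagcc
Rps23 itself had 125 and 111 TPM. Rps23-ps1, with 0 differing bases here and 100% identity over all 425 aligned bases, was listed at 769 and 754 TPM, above its parent in both libraries. Gm9701, with 3 differing bases, was listed at 0.11 and 0 TPM.

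The same held for Rpl5, whose aligned copies are Gm15500 (chromosome 7, 114705217 to 114706235) and Gm11313 (chromosome 13, 22758927 to 22759358).
Rpl5: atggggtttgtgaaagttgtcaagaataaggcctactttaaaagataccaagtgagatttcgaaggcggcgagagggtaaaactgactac
Gm15500: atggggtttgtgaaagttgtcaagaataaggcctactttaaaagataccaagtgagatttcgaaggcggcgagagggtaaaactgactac
Gm11313: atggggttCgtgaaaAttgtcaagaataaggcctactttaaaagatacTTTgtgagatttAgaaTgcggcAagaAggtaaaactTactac
Rpl5 had 42.6 and 46.2 TPM, Gm15500 with 0 differing bases had 371 and 351 TPM, and Gm11313 with 10 differing bases was listed at 0 in both libraries. Reads from an identical stretch cannot be told apart between a gene and its copy. Of the 100-base stretches of the gene, 41.5% in Rps23 and 42.9% in Rpl5 also occur in a copy, so most are its own. The copies differ in this. Of their 100-base stretches, 100% in Rps23-ps1 and 99.89% in Gm15500 also occur in the member, so almost none are the copy's own. How the shared reads were divided was not tested.

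**Figure D2:**
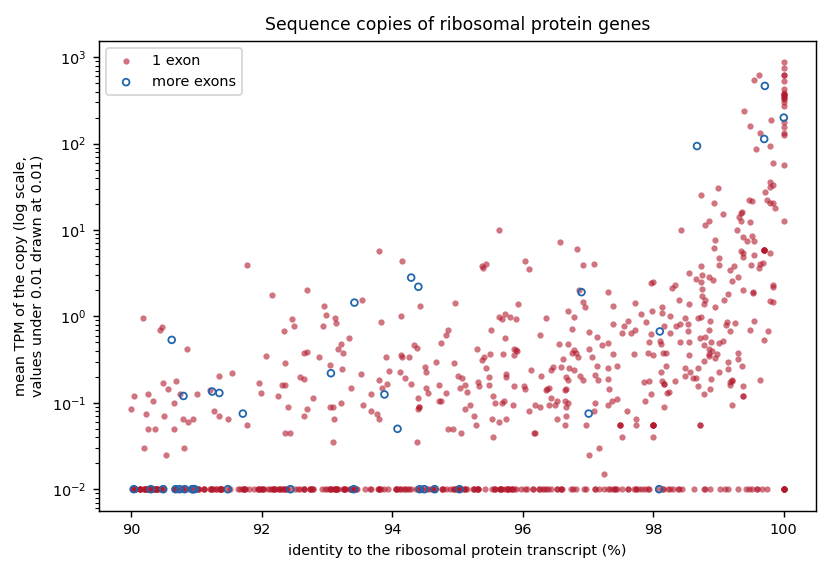
Each point is 1 of the 793 sequence copies: identity to the ribosomal protein transcript (horizontal axis, percent) against the copy's mean TPM in the 2 libraries (vertical log axis, values under 0.01 drawn at 0.01). Filled points have 1 annotated exon and open circles more; the 26 copies at 100 TPM or more in both libraries all lie at 99.39% identity or above, and the highest copy under 99% reached 93.9 TPM.

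Copies held 16.3% of all reads assigned to members and copies in replicate 1 and 17.3% in replicate 2. Pseudogenes named after a member with the ending -ps, of which the tables held 256, accounted for 7.478% and 8.202% of the reads of members and those pseudogenes. For 8 members the copies held more reads than the member in both libraries, and for 13 members more TPM. Copies held over 10% in both libraries for 27 members and under 1% in both for 21. The members are thus unevenly touched: Rps9, Rpl39l and Rpl3l were among those with no copy by these criteria, while Rpl5, Rps27, Rps23 and Rpl27 had 85.8%, 79.0%, 75.5% and 75.0% of their combined reads on copies in replicate 1, and 84.2%, 74.0%, 77.3% and 76.1% in replicate 2.

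Other copies with many reads, chosen here after their values were seen, follow. Rpl27 at 141 and 135 TPM had both Gm11518 (384 and 369 TPM) and Rpl27-ps3 (350 and 375). Rpl27a at 69.0 and 61.7 TPM had Gm7536 (313 and 300), and Rpl12 at 76.1 and 79.2 TPM had Gm10275 (190 and 210). Rps27 at 319 and 347 TPM had Rps27rt (691 and 568), an intronless gene annotated as protein-coding. Rps29 at 864 and 772 TPM had Gm14303, the highest copy, at 1026 and 735 TPM. Rpl15 at 220 and 196 TPM had Rpl15-ps3 (518 and 543), and Rpl37 at 152 and 150 TPM had Rpl37rt (472 and 461), which has 2 exons and matches Rpl37 at 99.71% over 50.4% of its own length. Gm10275 also has 2 exons, and the other copies named here have 1. In each of these pairs except Rps29 in replicate 2 the copy was listed above the member.

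With each member's copies added to it, a value chosen as an alternative after seeing the data, the members lay closer together. The ratio of the highest to the lowest of the 78 was 13.8 with copies and 44.8 for the genes alone. Under 200 TPM there were 1 member with copies and 10 without; the 1 was Rpl22 at 155 TPM, which had nearly none of its reads on copies. Rps23 stood at 900 and 872 TPM with copies, Rpl5 at 414 and 398 TPM, Rpl27a at 386 and 368 TPM, and Rpl12 at 270 and 304 TPM. The SD of log2 mean TPM over the 78 was 0.67 with copies and 0.91 without, and 68 were within a factor of 2 of the median with copies against 62 without. Rpl41 stayed highest at 2223 and 2075 TPM, followed by Rps29 at 1891 and 1509 TPM. Together, members and copies held 5.54% and 5.34% of mouse gene TPM. Adding a copy assumes that its reads came from the member, which was not tested. Each copy's TPM is also set by the copy's own length, so reads on a shorter copy add more TPM. Copies held 22.7% and 19.1% of the combined reads of Rps29 but added 1027 and 737 TPM to its 864 and 772. Levels with every read set at the member's length were not computed. The closer levels, and every value with copies given here, carry this limit.

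**Figure D3:**
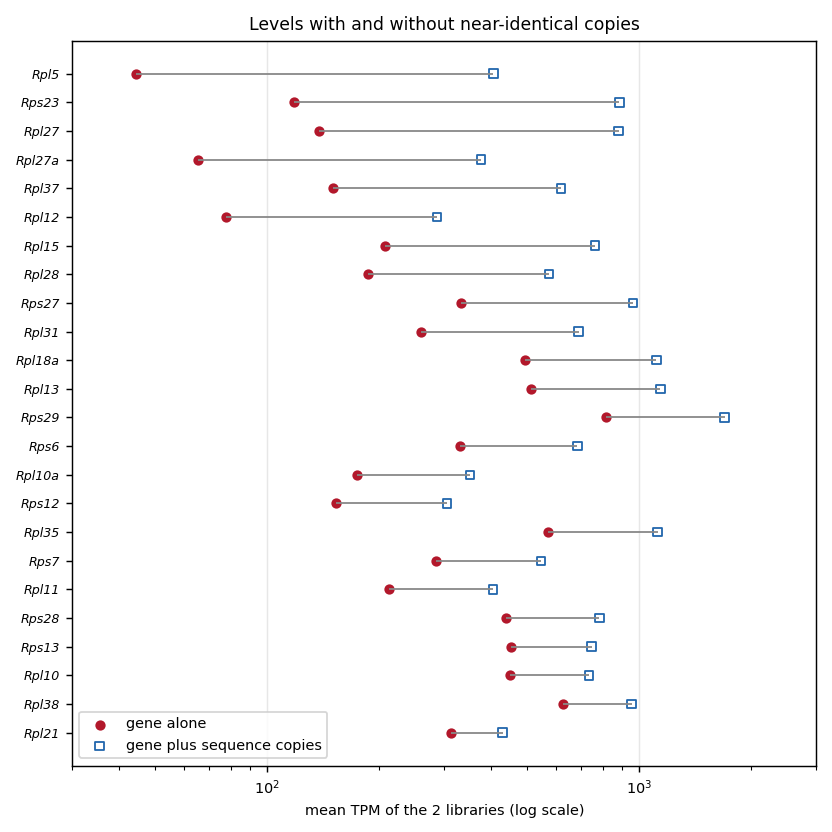
Mean TPM of the 2 libraries (horizontal log axis) for the 24 members whose level with copies was over 1.3 times the level alone; filled circles are the gene alone, open squares the gene plus its sequence copies, ordered by the factor between them. Rpl5 moves most, with 406 TPM with copies and 44.4 TPM alone.

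The deposited posterior SD of the count, which describes how uncertain the division of shared reads is, exceeded 10% of the count for 0 of the 78 members, against 5.22% of the 17428 genes that averaged at least 10 counts (910 genes). That background includes genes of far lower count, since the lowest of the 78 had 776 reads (Rps27, replicate 2). The share among genes of like count was not computed. For 51 members with reads it stayed under 1% in both libraries. It was largest for Rps27 (6.81% in replicate 1 and 6.93% in replicate 2), Rps12 (4.995% and 5.774%) and Rpl5 (4.02% and 5.25%), the 3 members over 5%. Rpl12, Rpl10a, Rpl11, Rpl31, Rps23, Rps6 and Rpl27 followed with 4.06% to 3.16% in replicate 2. All 10 have a copy at 100 TPM or more. For Rps23, 47.3 and 36.2 reads of posterior SD stood beside 1856 and 1046 reads on the gene, so the deposited uncertainty was far smaller than the 5668 and 3525 reads on Rps23-ps1.

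Ribosome components that the name rule leaves out stood at levels like those of the members. Rps3a1 had 560 and 592 TPM, Fau, a ubiquitin-like protein fused to a small subunit protein, had 369 and 365 TPM, and Rack1, a scaffold on the small subunit, had 325 and 313 TPM.

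Among members with a close paralogue, those known for restricted expression were near 0. Rpl3l, a striated muscle paralogue of Rpl3, and Rpl10l, a testis paralogue of Rpl10, had 0 reads in both libraries, which allows up to 0.147 and 0.232 TPM for Rpl3l and 0.144 and 0.227 TPM for Rpl10l (3 reads, counting error only). Rpl39l, another testis paralogue, had 2 and 1 reads (0.20 and 0.15 TPM), under that limit. Their partners Rpl3 (492 and 485 TPM), Rpl10 (464 and 437 TPM) and Rpl39 (269 and 237 TPM) were all abundant. None of these 3 paralogues shared a stretch of 100 bases, the read length that the deposited effective lengths imply, with its partner.

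In 2 other pairs both genes were expressed. Rpl36al had 363 and 328 TPM and its X-linked partner Rpl36a had 230 and 226 TPM, so the autosomal gene was higher in both libraries. The pair is 87.7% identical over 318 coding bases and shares no stretch of 100 bases. Rps27l, a p53 target in human cells, had 256 and 265 TPM beside 319 and 347 TPM for Rps27. This comparison depends on the copies, which held 79.0% and 74.0% of the combined reads of Rps27. With copies added Rps27 stood at 1011 and 915 TPM, and Rps27l stayed at 256 and 265 TPM. The first 90 coding bases show how each pair differs there, with bases that differ from the partner in capitals (Rpl36al on chromosome 12, Rpl36a on X, Rps27l on chromosome 9, Rps27 on chromosome 3). The Rps27l bases are those of Rps27l-203, which held 1.07% and 0% of the gene's TPM, while Rps27l-201 held 98.6% and 98.9%. Whether Rps27l-201 begins with the same coding bases was not tested.
Rpl36al: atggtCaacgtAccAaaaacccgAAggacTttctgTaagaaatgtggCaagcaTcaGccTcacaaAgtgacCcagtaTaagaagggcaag
Rpl36a: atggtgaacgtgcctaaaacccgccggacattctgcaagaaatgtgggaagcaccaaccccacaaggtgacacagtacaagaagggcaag
Rps27l: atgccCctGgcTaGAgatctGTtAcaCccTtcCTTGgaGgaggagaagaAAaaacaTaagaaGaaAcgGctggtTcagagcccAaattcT
Rps27: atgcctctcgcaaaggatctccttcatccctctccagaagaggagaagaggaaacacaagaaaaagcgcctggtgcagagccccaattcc
These paralogues differ throughout, unlike the copies above. Outside the rule, Rpl22l1 had 207 and 209 TPM and stood above its partner Rpl22 (161 and 149 TPM), Rpl7l1 had 61.9 and 74.1 TPM beside 814 and 756 TPM for Rpl7, and the transcribed pseudogene Rps4l had 178 and 190 TPM beside 340 and 322 TPM for Rps4x.

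The members with known developmental mutants in mice were all expressed, with Rpl27a well below the others. Rps19 and Rps20, mutated in dark skin mice, had 983 and 937 TPM and 258 and 268 TPM. Rpl38, the gene of the tail-short mutant with changed axial skeleton patterning, had 632 and 619 TPM. Rpl24, mutated in belly spot and tail mice, had 457 and 415 TPM. Rps6, the target of the S6 kinases, had 338 and 324 TPM, Rps7 had 274 and 295 TPM, and Rpl27a had 69.0 and 61.7 TPM. With copies added, Rps6 stood at 700 and 667 TPM, Rps7 at 542 and 551 TPM and Rpl38 at 897 and 1014 TPM. Rpl27a, at 386 and 368 TPM, no longer stood apart by this summed TPM, which has the length limit given above. By contrast Rps19 (996 and 960 TPM), Rps20 (258 and 268) and Rpl24 (499 and 457) stood close to their values alone.

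The 81 members lie on 19 chromosomes, with 14 on chromosome 7 and 7 each on chromosomes 9, 11 and 17. The 4 X-linked members are Rpl10, Rps4x, Rpl39 and Rpl36a. They had 464 and 437, 340 and 322, 269 and 237, and 230 and 226 TPM, so 1 was above the median of the 78 and 3 were below it. Across the 78 members, transcript length and mean TPM had a Spearman rho of -0.37 (-0.30 with copies), given as a description since both come from the same libraries and length enters the TPM.

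The tables gave 363 transcripts for the members. Protein-coding transcripts held 92.5% of member reads in each library, retained-intron transcripts 2.35% and 2.44%, processed transcripts 3.50% and 3.45%, and transcripts marked for nonsense-mediated decay 0.49% and 0.55%. The leading transcript was the same in both libraries for 76 of the 78 members. It held under 80% of the gene's TPM in both libraries for 25 members.

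Rps24, known for alternative last coding exons, had 2 quantified transcripts, and Rps24-201 held 98.7% and 98.6% of its TPM. Rpl3 was led by Rpl3-201 with 96.2% in both. The 25 members with a leading share under 80% were Rpl5, Rpl7, Rpl10a, Rpl11, Rpl12, Rpl13a, Rpl15, Rpl21, Rpl22, Rpl23, Rpl24, Rpl27, Rpl28, Rpl29, Rpl30, Rpl31, Rpl35a, Rpl38, Rps3, Rps10, Rps14, Rps15a, Rps18, Rps19 and Rps28. Their mean leading share ran from 37.6% (Rpl13a) to 79.7% (Rpl21). Rpl38 was divided among Rpl38-201 (48.2% and 48.0%), Rpl38-204 (34.6% and 32.6%) and Rpl38-202 (16.6% and 18.6%), all protein-coding. Rps14 was divided between Rps14-205 (54.5% and 54.0%) and Rps14-201 (38.9% and 40.3%), and Rpl11 between Rpl11-210 (45.8% and 47.9%) and Rpl11-201 (45.0% and 43.8%). These splits repeated closely between the libraries.

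For 5 members the leading transcript was annotated as non-coding. Rps20-201, a retained-intron transcript, held 91.2% and 92.9% of Rps20, while the coding Rps20-203 held 7.07% and 6.85%. The processed transcript Rpl35-203 held 86.5% and 85.5% of Rpl35, and the coding Rpl35-201 held 4.86% and 4.44%. Rpl12-201, marked for nonsense-mediated decay, held 58.6% and 60.5% of Rpl12. The order differed between libraries for Rpl23, where the processed transcript Rpl23-204 held 62.4% and 45.5% and the coding Rpl23-201 36.2% and 52.8%, and for Rps18, where the processed transcript Rps18-209 held 46.9% and 52.9% and the coding Rps18-201 48.9% and 42.3%. Rpl13a was led by a transcript that the later annotation does not hold. All these transcript shares leave out reads assigned to copies. Copies held 61.2% and 62.6% of the combined reads of Rpl12, 40.3% and 46.4% of Rpl35, and 85.8% and 84.2% of Rpl5, named above. They held 0 reads for Rps20 and Rpl23, and 1.42% and 1.32% for Rps18. Whether the division of reads with copies moved the transcript shares was not tested. Biotypes are those of GENCODE M21, and whether the same transcripts carried the same biotypes in the M4 annotation was not tested.

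The members are also hosts of small nucleolar RNAs: 29 members contain 56 annotated snoRNA genes on their own strand, up to 5 in a member. These guide RNAs, cut from introns, had few reads. Together they had 60.2 and 42.0 reads, 35 of the 56 had 0 reads in both libraries, and none had more than 12. Every snoRNA of 99 bases or fewer had 0 reads in both libraries. Such genes are shorter than the read length that the deposited effective lengths imply, so their counts of 0 cannot show absence. Among the longer snoRNAs only Snora52 and Snora69 had 0 reads in both libraries.

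Annotated starts were read for the TOP tract, since it is the sequence by which these mRNAs are recognised in translational control. The RefSeq promoter table (GRCm38.p6) held 61 of the 81 members. A start with C and then at least 4 letters that are each C or T, on the gene's own strand, was found at the annotated first base for 13 members (21.3%), against 3.01% of the 27025 genes in the table (2.51% of its 32851 promoters). Within 5 bases of the annotated start there was such a run for 28 members (45.9%), against 21.2% of all genes (18.4% of promoters). The 5 longest are printed here, and Rpl38 as 1 of 4 members with 8 bases, with the tract in capitals and the annotated first base as its first capital, beside Rpl41, the most abundant member, which had no tract at its annotated start.
Rpl15 (chr14:18270967-18270996, minus strand): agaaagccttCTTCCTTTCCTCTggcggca
Rpl35 (chr2:39005112-39005141, minus strand): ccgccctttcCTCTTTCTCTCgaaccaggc
Rps10 (chr17:27635225-27635254, minus strand): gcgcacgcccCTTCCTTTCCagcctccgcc
Rps18 (chr17:33955646-33955675, minus strand): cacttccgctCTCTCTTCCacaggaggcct
Rps6 (chr4:86857348-86857377, minus strand): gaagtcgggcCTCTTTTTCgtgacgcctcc
Rpl38 (chr11:114668570-114668599, plus strand): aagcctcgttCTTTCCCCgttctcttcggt
Rpl41 (chr10:128549149-128549178, minus strand): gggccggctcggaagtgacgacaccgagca
The tracts ran to 13 bases in Rpl15 and 11 in Rpl35. The other members with a tract at the annotated base were Rplp2, Rpl35a, Rpl14, Rps15a, Rps27, Rps21 and Rpl28. A missing tract says only that these letters do not begin at the annotated base.

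Most members were slightly higher in replicate 1. The log2 ratio of replicate 1 over replicate 2, from TMM-scaled counts (trimmed mean of M values) with 0.5 added, had a median of 0.12 over the 78 members, against -0.0001 over the 17428 genes that averaged at least 10 counts. It was above 0 for 68 members and below 0 for 10, against 49.99% above 0 among all genes. The SD of the ratio was 0.11 over the members and 0.14 over the genes that averaged at least 1000 counts. No member was past 1.5-fold in either direction, where 9.58% of all genes and 0.206% of those 6324 high-count genes were, so the count of 0 is near that background. Of all genes, 4.32% were past 1.5-fold higher in replicate 1 and 5.26% higher in replicate 2. Large and small subunit members had the same median to 2 decimals, 0.12.

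The 5 highest ratios belonged to Rpl29 (0.38, counting SE 0.03; 490 TPM in replicate 1 and 391 TPM in replicate 2), Rps15a (0.33), Rpl13 (0.31), Rps21 (0.30) and Rpl31 (0.29). The 5 lowest belonged to Rps12 (-0.34, counting SE 0.06), Rps27 (-0.06), Rpl8 (-0.06), Rpl10a (-0.05) and Rpl35a (-0.05). Rps12 stood alone among these. It had 133 and 175 TPM while its identical copy Rps12l1 had 160 and 108 TPM, and with copies added Rps12 stood at 314 and 296 TPM, a log2 ratio of 0.10. With copies added Rpl13 had 0.14 and Rpl31 0.17, while Rpl29 (0.36), Rps21 (0.30) and Rps15a (0.29) changed little. With copies added to all members the ratio ran from -0.09 to 0.36, against -0.34 to 0.38 without.

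The scaling set the size of the shift. The median ratio of members was 0.12 with DESeq2 size factors, 0.11 with total counts, 0.07 with deposited TPM and 0.04 with spike-in counts, and 68, 66, 58 and 53 of the 78 members were above 0. The median of all genes was -0.09 with spike-in counts and -0.06 with deposited TPM. The members' median lay 0.12 above that of all genes in each count scaling and 0.13 above with deposited TPM. A scale factor moves every gene alike, so this difference could not vary among the count scalings and is no check of the shift. Markers of skeletal muscle, surface epithelium and dividing cells moved between the libraries too. The 8 skeletal muscle genes summed to 126 and 221 TPM, with 0 of 8 higher in replicate 1 and Acta1 at 19.5 and 45.7 TPM. The 8 surface epithelium genes summed to 13.0 and 29.1 TPM, with 1 of 8 higher in replicate 1, and the 8 genes of dividing cells to 316 and 396 TPM, with 0 of 8 higher. Their part in the members' ratio was not tested.

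**Figure D4:**
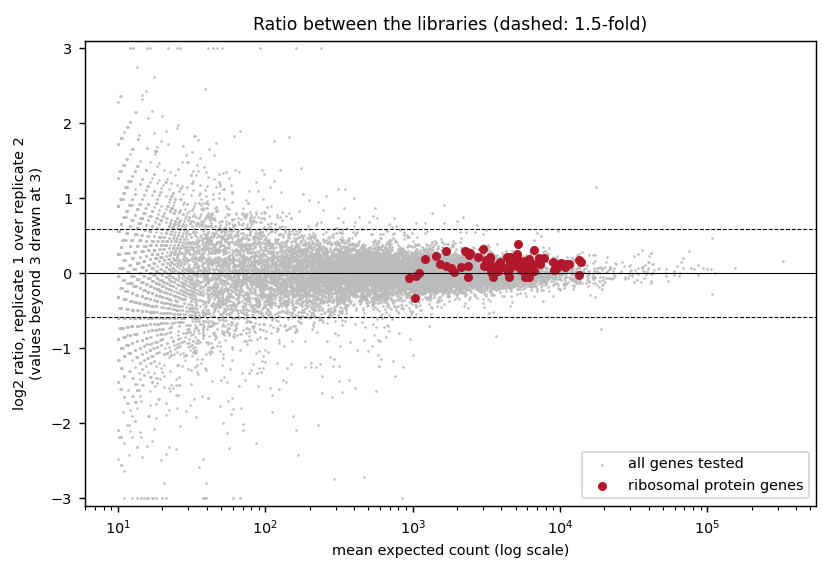
Log2 ratio of replicate 1 over replicate 2 (vertical axis, values beyond 3 drawn at 3) against mean expected count (horizontal log axis) for all genes tested (grey) and the 78 members (red); dashed lines mark 1.5-fold. The members lie between -0.34 and 0.38, with 68 above 0.

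Genes that work with the ribosomal proteins were set beside them by level. The 16 translation factors and other mRNAs known for TOP tracts had a median of 248 TPM, led by Eef1a1, the elongation factor that delivers tRNAs (2621 and 2597 TPM), Tpt1 (710 and 743), Hnrnpa1 (566 and 586) and Btf3 (464 and 469), with Eif3f lowest (59.9 and 52.9). The 77 mitochondrial ribosomal proteins, which serve the separate ribosome of the mitochondrion, had a median of 71.3 TPM. They ran from Mrpl1 (12.7 and 13.4 TPM) to Mrps21 (269 and 256), followed by Mrpl42 (209 and 200), Mrpl30 (203 and 197) and Mrpl20 (200 and 190). Their spread, an SD of log2 TPM of 0.91, was that of the 78 cytoplasmic members before copies were added, 0.91.

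The machinery that builds ribosomes was lower. Of the ribosome biogenesis list 34 genes were in the tables, with a median of 38.7 TPM. Nop56 (171 and 176 TPM) and Nop58 (112 and 115), core proteins of snoRNPs, Ncl, the nucleolar protein nucleolin (158 and 168), Nop10 (122 and 131) and Eif6 (129 and 120) were highest, and Utp20 (2.16 and 2.53) lowest. The 14 genes of rDNA and 5S transcription had a median of 36.9 TPM, with the RNA polymerase I factor Rrn3 (90.1 and 93.7 TPM), Polr1d (81.4 and 72.2), Gtf3a, the 5S gene factor (75.7 and 72.5), and Polr1c (63.8 and 71.9) highest, and Polr1a lowest (9.02 and 8.99). Among 15 regulators of TOP mRNAs the median was 29.6 TPM. Cnbp (428 and 472 TPM), Ssb, the La protein (253 and 265), Rheb, the activator of mTOR (182 and 204), and Eif4e, the cap-binding protein (101 and 122), were highest. Mtor itself had 17.0 and 16.1 TPM, Larp1, the TOP cap-binding repressor, 13.8 and 12.4 TPM, and Rptor was lowest at 8.25 and 7.27 TPM. None of the genes in these lists other than 1 mitochondrial ribosomal protein, Mrpl23 (48.8 and 26.3 TPM), was past 1.5-fold between the libraries.

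**Figure D5:**
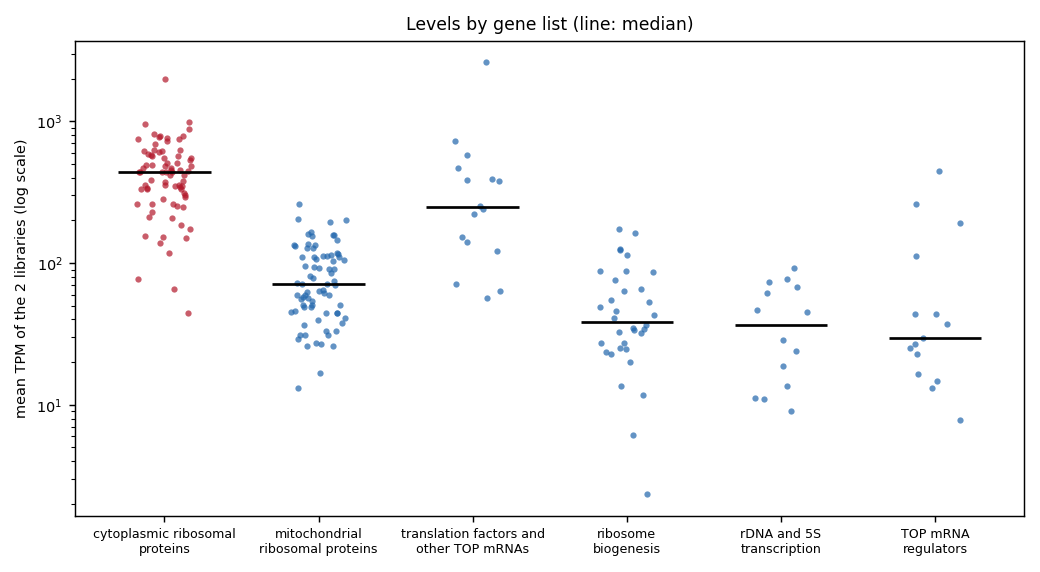
Mean TPM of the 2 libraries (vertical log axis) for the 78 expressed members (red) and 5 gene lists (blue), 1 point per gene with random sideways spread and a line at the median. Medians are 438 TPM for the members, then 71.3, 248, 38.7, 36.9 and 29.6 TPM for the lists from left to right.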

How the data were processed

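Total RNA of E13.5 mouse neural tube was sequenced in 2 libraries. The authors deposited a gene table and a transcript table for each, on mm10 with GENCODE M4, per the notes deposited with them; which aligner and quantifier were run, and how strand was handled, is not given in the sources used here. The deposited expected counts are estimated reads that need not be whole, and were rounded for scaling and ratios. The deposited TPM scale abundance to a fixed sum over all features, spike-ins included (13.0% and 12.6% of it). The isoform percent deposited by the authors is a transcript's share of its gene's TPM. The deposited posterior SD of the count is a score of uncertainty in reads.

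Symbols, biotypes and coordinates came from GENCODE M21 (GRCm38), matched on identifiers without version (42462 of 43346 genes); 9 of the 81 members had the same version. Scale factors were from edgeR 4.0.16 (TMM) and DESeq2 1.42.0 in R 4.3.3. Ratios used genes averaging at least 10 counts, and were checked on simulated counts. The common biological coefficient of variation was 9.24% on 1 degree of freedom. Copies were found with blastn 2.17.0 at 90% identity over at least 50% of the copy's transcript, same strand, outside the member's locus, small RNAs left out. A count of 0 was taken to allow 3. Nothing says whether the replicates came from separate litters, so the SD may be partly technical. The members and lists were chosen with earlier results of these data known. Genes were named by rank of level, of ratio and of posterior SD, by paralogue, X linkage, known mutants and leading share, and as the 4 highest and the lowest of each list. Python 3.11.15, pandas 2.3.3, NumPy 2.4.6, SciPy 1.17.1 and matplotlib 3.10.9 were used. Values of a few genes are not reported here.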

Additional observations from a re-analysis of the deposited data

How the results depend on the processing

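The members' share of mouse gene TPM (4.13%) was 3.60% with every feature in the denominator, 4.27% with Rps3a1, Fau and Rack1 added, 5.44% with copies, and 4.02% to 4.23% leaving out either library. The SD of log2 TPM (0.75) was 1.31 over all members above 0 with 1 TPM added, 0.76 without effective lengths under 300 bases, 0.67 with copies, 0.91 over the 78 expressed members, 0.67 over these with copies, and 0.749 to 0.753 leaving out either library. Members with a posterior SD over 5% of the count numbered 3, against 0 at 10% and at 20%. The share of reads on named pseudogenes (7.84%) was 11.01% in TPM, 16.8% for copies by sequence, 16.7% and 16.2% for those at 95% and 99% identity, and 7.478% to 8.202% leaving out either library; all processed pseudogenes held 0.724% of gene counts. The leading share of Rps24 (98.6%) was 98.6% (98.59) by posterior mean, 97.3% by counts, and 98.62% to 98.65% leaving out either library. Starts with a tract (13 of 61 matched members) numbered 28 of 61 within 5 bases. At GENCODE M21 coding transcript starts, which cover all members, they numbered 22 of 81 (27.2%), against 5.15% of 21428 genes. The count of 0 members past 1.5-fold and the sign of the median ratio held in every alternative run. The cause of these moves was not tested, beyond what each setting adds or removes. Settings with copies, these 3 added genes, M21 starts or the 78 members were chosen after seeing the data. A planned wider addition is not reported. No paired analysis was possible because there is a single group. With 1 group and 2 libraries, each SD rests on 2 values, and the ratio has no replicate check.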
